A study of Homo sapiens with 6 samples.

Results

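The genes of the apical-basal polarity complexes were followed in SW480 cells after knockdown of ZEB1, a transcription factor that represses epithelial genes. The members were the 10 genes CRB3, PATJ, PARD3, PARD6B, PRKCI, PRKCZ, LLGL1, LLGL2, SCRIB and DLG1, taken by their symbol in the deposited tables, out of 32029 genes with at least 1 read in the 6 cultures. SW480 is an established human colorectal adenocarcinoma cell line. The 3 siNC cultures are labelled WT and received a control siRNA, the 3 siZEB1 cultures received an siRNA against ZEB1, and the design text of the series gives 48 h of transfection. The study's methods call the 3 cultures of each group biological replicates, and they are all of this single line.

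Epithelial cells carry a different set of membrane proteins on their apical face than on their basolateral sides. The Crumbs complex (Crumbs proteins, PALS1 and PATJ) and the Par complex (PAR3, PAR6, the atypical protein kinase C and CDC42) act at the apical side and at the junctions, whereas the Scribble group (SCRIB, the DLG proteins and the LGL proteins) acts on the basolateral side. Each set restrains the other, in part because the atypical protein kinase C phosphorylates LGL and displaces it from the apical membrane, and ZEB1 is known as a repressor of several of these genes in carcinoma cells.

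Levels are given as CPM, the usual library-scaled read count (after TMM scaling), as the mean ± SD over 3 cultures. The siZEB1 cultures were set against the siNC cultures with the quasi-likelihood test of edgeR (two-sided), and a gene was called at an adjusted p (Benjamini-Hochberg over all 14996 genes that passed edgeR's filter on low counts) under 0.05. Library totals lay between 19261824 and 22357633 reads in siNC and between 19040636 and 19349668 in siZEB1. The targeted gene ZEB1 had 1247, 1276 and 908 reads under siNC and 136, 132 and 162 under siZEB1 (log2 fold change -2.85, SE 0.11, adjusted p = 4.85e-12). The epithelial keratins KRT8 and KRT18 stood at 3455 and 1418 CPM in siNC and at 3534 and 1460 CPM in siZEB1, while KRT20, CDH17, LGALS4 and GPA33, markers of differentiated colon epithelium, had at most 20 reads in any culture. The summed level of the 10 colorectal epithelium markers with reads was 4815 to 5438 CPM in siNC and 5330 to 6003 CPM in siZEB1. Single markers moved within that sum, EPCAM from 54.7 to 454 CPM, KRT19 from 72.3 to 223 CPM, VIL1 (villin, 44.0% of whose exonic bases lie opposite exons of another gene) from 4.08 to 20.7 CPM and CDX2 from 102.5 to 41.8 CPM, and their part in the results below was not tested. Listed leukocyte markers summed to at most 1.17 CPM in any culture, endothelial markers to at most 2.72 CPM and fibroblast markers to at most 15.2 CPM. In RNA from whole cultures, fewer cells that express a gene and less of its RNA per cell cannot be told apart.

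ZEB1 binds E-boxes, short DNA motifs. The E-box searched here was CAGGTG, which reads CACCTG on the other strand, together with its core AGGTG, which reads CACCT on the other strand and lies inside every such E-box. RefSeq promoter windows on GRCh38.p14, 250 bases before a start site and 50 from it on, were held for 6 of the 10 members, in 13 windows: CRB3, PATJ, LLGL1, PRKCI, PRKCZ and DLG1. The 4 windows below are shown because they span the range of E-box numbers among the members, with the E-boxes in capitals and all read 5′ to 3′ on the plus strand, which is the strand of each gene. They lie at chr19:6464021-6464320 for CRB3, chr1:61742230-61742529 for PATJ, chr1:2050161-2050460 for the first of 4 PRKCZ windows and chr17:18225385-18225684 for LLGL1.
CRB3: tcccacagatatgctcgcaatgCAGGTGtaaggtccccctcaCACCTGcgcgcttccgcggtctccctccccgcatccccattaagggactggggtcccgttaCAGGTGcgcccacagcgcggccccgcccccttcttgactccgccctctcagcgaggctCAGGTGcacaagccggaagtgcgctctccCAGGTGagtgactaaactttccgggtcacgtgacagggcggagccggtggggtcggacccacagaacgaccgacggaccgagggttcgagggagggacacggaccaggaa
PATJ: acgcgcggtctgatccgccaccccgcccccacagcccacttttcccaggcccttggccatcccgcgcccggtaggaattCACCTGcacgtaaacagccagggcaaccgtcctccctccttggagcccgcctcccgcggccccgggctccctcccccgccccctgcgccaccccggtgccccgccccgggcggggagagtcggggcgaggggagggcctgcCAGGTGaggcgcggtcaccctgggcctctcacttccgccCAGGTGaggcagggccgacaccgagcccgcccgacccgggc
PRKCZ: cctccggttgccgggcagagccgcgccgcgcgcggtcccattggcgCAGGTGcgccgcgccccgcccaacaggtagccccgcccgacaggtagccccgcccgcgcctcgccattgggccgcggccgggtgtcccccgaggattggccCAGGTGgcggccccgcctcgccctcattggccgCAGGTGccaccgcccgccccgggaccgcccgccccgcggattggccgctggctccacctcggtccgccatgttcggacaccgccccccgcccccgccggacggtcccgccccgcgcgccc
LLGL1: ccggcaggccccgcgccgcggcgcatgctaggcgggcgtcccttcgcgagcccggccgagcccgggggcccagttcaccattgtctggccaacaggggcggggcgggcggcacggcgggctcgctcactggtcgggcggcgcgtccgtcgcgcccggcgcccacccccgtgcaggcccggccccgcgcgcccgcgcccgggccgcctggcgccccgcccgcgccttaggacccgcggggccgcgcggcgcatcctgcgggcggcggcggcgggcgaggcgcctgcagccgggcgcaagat

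The CRB3 window holds 5 E-boxes, which begin 228, 208, 147, 89 and 60 bases before the start site. The PATJ window holds 3, which begin 171 and 30 bases before the start site and at base 9 after it. The first PRKCZ window also holds 3, at 204, 103 and 70 bases before the start, although no GENCODE transcript covers the last 40 bases of that window. The LLGL1 window holds neither the E-box nor the core. Of the other 9 windows, 1 of PRKCZ and 1 of DLG1 hold a single E-box, and the rest, among them that of PRKCI, hold none. Over all 35116 promoter windows of the same length, 20.6% hold at least 1 E-box, 0.635% at least 3 and 0.168% at least 4, so few windows hold as many as those of CRB3, PATJ and PRKCZ. The core alone is found in 51.6% of windows. By transcript response the shares with at least 1 E-box were 21.95% for windows of genes called higher, 17.5% for genes called lower and 18.4% for genes tested and not called, given here without a test. A match describes the letters of the window and was not linked to binding in these data.

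The 3 promoters with 3 or more E-boxes belong to genes with 3 different readings in RNA, as given next: PATJ rose, PRKCZ was not called, and CRB3 was too sparse to test. Of the 9 members tested, 3 were called higher with siZEB1 (PATJ, LLGL2 and PARD6B), 3 lower (LLGL1, DLG1 and PARD3), and PRKCI, PRKCZ and SCRIB were not called. Among all genes tested, 19% were called higher and 21.2% lower, 40.2% in all, so a call in either direction was common in this comparison. The median log2 fold change of the 9 members was 0.067, beside -0.0055 over all genes tested. The siNC and siZEB1 cultures did not overlap for 5 members (PATJ, LLGL2, PARD6B, LLGL1 and PARD3), where 49.5% of all genes tested did not overlap (24.3% with siZEB1 higher and 25.3% with siZEB1 lower). Under a limit of 1.5-fold with an unadjusted p under 0.05, 2 members were higher by edgeR, PATJ and LLGL2, and 0 lower, beside 7.21% higher and 9.35% lower of all genes tested. With no limit on the fold change, 3 members were lower at that p and also 3 by DESeq2 at an adjusted p under 0.05, and the shares of all genes under these limits are not given here. The same fold with an unadjusted p under 0.001, the limit in the study's methods, left the same 2 members higher and 0 lower, beside 4.52% and 6.7% of all genes.

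**Figure D1:**
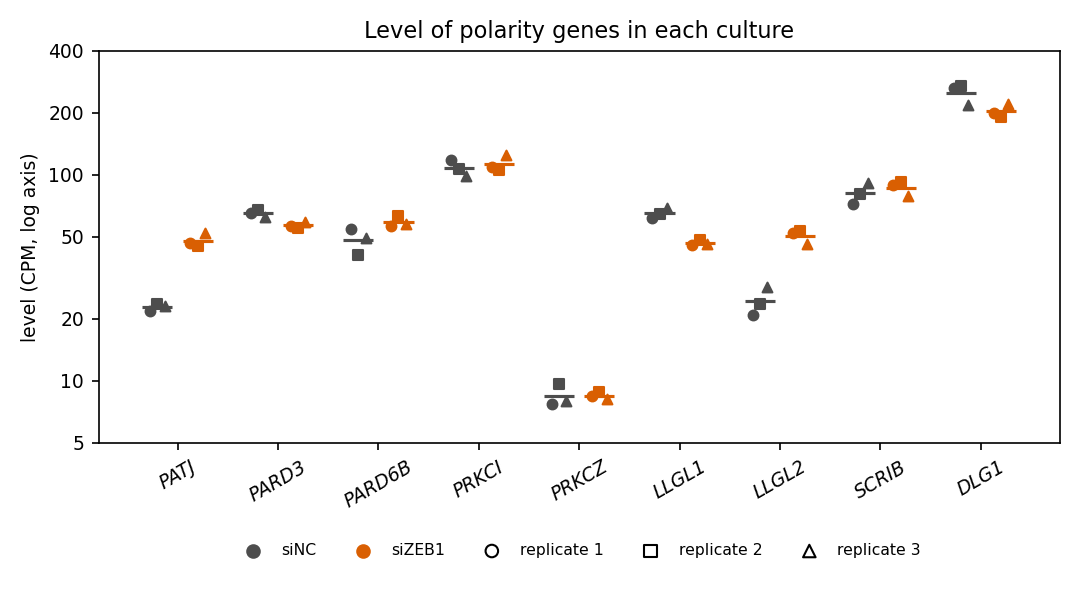
Level of the 9 members tested (CRB3 is not drawn) in each culture, as CPM on a log axis, with siNC in grey and siZEB1 in orange, each symbol a culture, its shape the replicate number and each line the mean of 3 cultures. The siZEB1 cultures sit between 44.9 and 52.0 CPM for PATJ and between 46.0 and 53.5 CPM for LLGL2, above siNC cultures of at most 23.7 and 28.6 CPM, whereas the groups overlap for DLG1, PRKCI, PRKCZ and SCRIB.

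In the Crumbs complex, the transmembrane protein CRB3 (ENSG00000130545, chromosome 19 from 6463777 to 6467221), the Crumbs form of most epithelia, was barely transcribed in either group. Only 5, 1 and 0 reads were counted under siNC and 2, 2 and 4 under siZEB1, which left it below the filter. The sums were 6 reads of 62850251 with siNC, 0.0955 CPM of the raw total (95% exact Poisson interval 0.0350 to 0.208), and 8 reads of 57500689 with siZEB1, 0.139 CPM of the raw total (0.0601 to 0.274). The ratio of siZEB1 to siNC was 1.46, with an exact 95% interval from 0.443 to 5.10 that covers counting error only, so no change in either direction was detectable at this depth.

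PATJ (ENSG00000132849, chromosome 1 from 61742406 to 62178675), the multi-PDZ scaffold that PALS1 joins to the Crumbs tail, rose. Its level was 21.9, 23.7 and 23.0 CPM in the siNC cultures and 46.8, 44.9 and 52.0 CPM in the siZEB1 cultures. Every siZEB1 culture lay far above every siNC culture. The means were 22.9 ± 0.883 and 47.9 ± 3.68 CPM (SD, n = 3 each). On the log2 scale this is 1.07 (SE 0.080, 95% interval 0.90 to 1.24, adjusted p = 2.04e-08 by edgeR), an increase of 109.7%.

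Of 12 tested partners of the Crumbs complex, 2 were called higher, 2 lower and 8 neither, which is 33.3% called beside 40.2% of all genes, with a median log2 fold change of -0.064. MPP7, a MAGUK scaffold related to PALS1, rose from 31.8, 29.9 and 27.1 CPM in siNC to 52.3, 53.2 and 65.6 CPM in siZEB1 (log2 fold change 0.95, adjusted p = 4.66e-07 by edgeR). PALS1 (listed as MPP5), the adaptor that ties PATJ to Crumbs, rose from 96.5 to 136 CPM (0.49, adjusted p = 3.12e-05). The groups did not overlap for either gene, where 49.5% of all genes tested did not overlap. CRB2, a paralog of CRB3, fell by 1.35 on the log2 scale (adjusted p = 0.00122), on 36, 42 and 29 reads in siNC and 12, 11 and 15 in siZEB1. EPB41L5, a FERM-domain protein that binds Crumbs, had a log2 fold change of -0.35 (46.2 to 36.2 CPM, adjusted p = 0.00124).

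In the Par complex, the scaffold PARD3, which recruits PAR6 and the kinase to tight junctions (chromosome 10 from 34109560 to 34815325), was lower by a small margin. It stood at 65.3, 67.7 and 62.2 CPM in siNC and 56.6, 54.9 and 58.9 CPM in siZEB1, and the log2 difference was -0.20 (SE 0.068, adjusted p = 0.0284 by edgeR). The groups did not overlap, but the call was lost when any of 4 cultures was left out. The adjusted p was 0.0563 without siNC replicate 1, 0.129 without siNC replicate 2, 0.0950 without siZEB1 replicate 1 and 0.117 without siZEB1 replicate 2.

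PARD6B, a PAR6 gene whose protein binds the kinase and CDC42 (chromosome 20 from 50731544 to 50756795), stood at 54.3, 40.9 and 49.4 CPM in siNC and 56.6, 63.2 and 57.4 CPM in siZEB1. Its means were 48.2 ± 6.77 and 59.1 ± 3.61 CPM (SD, n = 3 each), which is 0.29 higher on the log2 scale (SE 0.091, adjusted p = 0.0154 by edgeR). The siNC culture with the highest level lay only slightly below the lowest siZEB1 culture. The adjusted p was 0.118 without siNC replicate 2 and 0.0793 without siZEB1 replicate 2.

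Neither atypical protein kinase C gene was called. PRKCI (chromosome 3 from 170222365 to 170305981), which encodes the iota form of most epithelia, stood at 118, 107 and 98.5 CPM in siNC and 109, 105 and 124 CPM in siZEB1. Its log2 fold change was 0.067, with a 95% interval from -0.10 to 0.23 (adjusted p = 0.532 by edgeR). PRKCZ (chromosome 1 from 2050470 to 2185395), which encodes the zeta form, stood at 7.71, 9.60 and 7.94 CPM in siNC and 8.42, 8.79 and 8.20 CPM in siZEB1, with an interval from -0.25 to 0.26 around 0.0065 (adjusted p = 0.972). The groups overlapped for both genes. Genes on the opposite strand share 12.3% of the exonic bases of PRKCZ, and the use of strand in the counting is not given in the sources used here.

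Of 11 tested Par partners, 6 were called higher, 1 lower and 4 neither, with a median log2 fold change of 0.17. That is 63.6% called, beside 40.2% of all genes tested (19% higher and 21.2% lower). Among the higher genes, CDC42 (0.17, adjusted p = 0.0198 by edgeR) lost its call in 4 of the 13 alternatives to the fit described below. A gene on the same strand shares 57.1% of the exonic bases of CDC42. MARK3 (0.21, adjusted p = 0.00955 by edgeR) lost its call with the replicate block (0.0722). WWC1 (KIBRA), a scaffold that binds the atypical kinase, rose from 138, 144 and 140 CPM in siNC to 209, 215 and 211 CPM in siZEB1 (log2 fold change 0.59, adjusted p = 3.19e-07 by edgeR). ECT2, a guanine nucleotide exchange factor that binds the Par complex, rose from 186 to 256 CPM (0.46, adjusted p = 0.000159), and the kinase MARK2, known as PAR-1b, from 76.5 to 102 CPM (0.41, adjusted p = 7.41e-05). None of these genes overlapped between the groups, where 49.5% of all genes tested did not overlap. STK11 (LKB1, the PAR-4 homologue) was the one lower gene, at 83.3 and 68.2 CPM (-0.29, adjusted p = 0.00839, and -0.14 with the offsets adjusted for GC content described below). PARD3B, a paralog of PARD3, had 21, 24 and 20 reads in siNC and 31, 27 and 39 in siZEB1 (0.71, adjusted p = 0.0412). Its adjusted p rose above the threshold on leaving out siNC replicate 1 (0.0983), siNC replicate 2 (0.0835), siNC replicate 3 (0.0742), siZEB1 replicate 1 (0.0818) or siZEB1 replicate 3 (0.172). The call of PARD3B was also lost with DESeq2 (0.0970), and in edgeR without a filter (0.0660) or with a replicate block (0.0704).

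**Figure D2:**
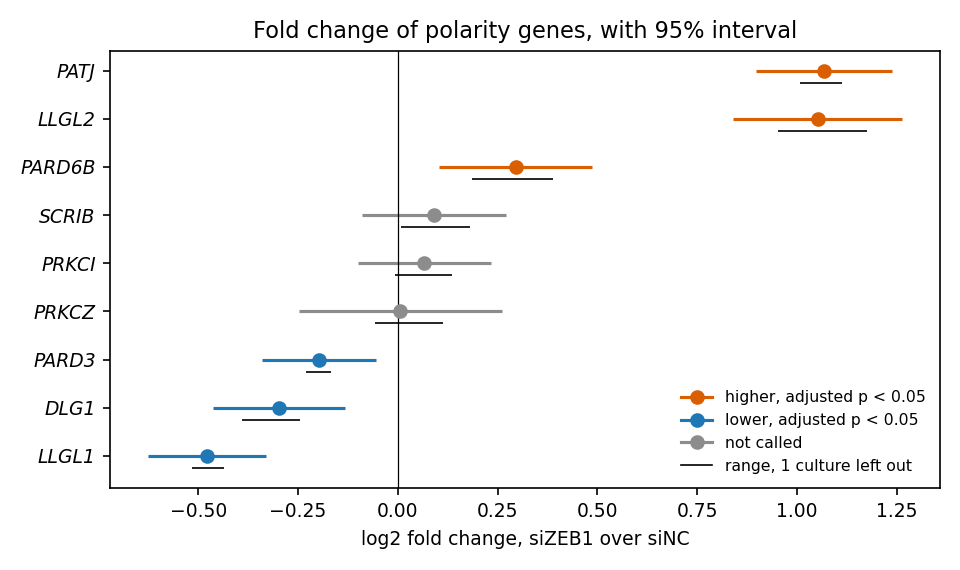
Log2 fold change of siZEB1 over siNC for the 9 members tested, ordered by size, as points with 95% intervals from edgeR's fit, coloured by call, and under each a thin black line for the range with 1 culture left out. PATJ at 1.07 and LLGL2 at 1.05 stand apart from the others, which lie between -0.48 for LLGL1 and 0.29 for PARD6B, and the intervals of PRKCI, PRKCZ and SCRIB cross 0.

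In the Scribble group, both genes of the LGL family changed, in opposite directions. LLGL2 (chromosome 17 from 75525080 to 75575208), the LGL protein of epithelial tissues, stood at 21.0, 23.6 and 28.6 CPM in the siNC cultures and 52.0, 53.5 and 46.0 CPM in the siZEB1 cultures. The means of 24.4 ± 3.89 and 50.5 ± 3.95 CPM (SD, n = 3 each) differed by 1.05 on the log2 scale (SE 0.10, 95% interval 0.84 to 1.26, adjusted p = 3.15e-07 by edgeR), an increase of 106.9% without overlap between the groups.

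LLGL1 (chromosome 17 from 18225587 to 18244875), its more broadly expressed paralog on the same chromosome, stood at 62.0, 64.5 and 69.2 CPM in siNC and 45.8, 48.4 and 46.2 CPM in siZEB1. All siZEB1 cultures were lower than all siNC cultures. The means were 65.2 ± 3.67 and 46.8 ± 1.37 CPM (SD, n = 3 each), so the level fell by 28.2%, and the log2 difference was -0.48 (SE 0.070, 95% interval -0.63 to -0.33, adjusted p = 3.71e-05 by edgeR).

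DLG1 (chromosome 3 from 197042560 to 197299300), a MAGUK scaffold of the lateral membrane, stood at 264, 269 and 217 CPM in siNC and 200.4, 189.8 and 220.5 CPM in siZEB1. The means of 250.1 ± 28.5 and 204 ± 15.6 CPM (SD, n = 3 each) gave -0.30 on the log2 scale (SE 0.078, adjusted p = 0.00567 by edgeR). The groups overlapped, because the level of siNC replicate 3 lay below that of siZEB1 replicate 3. SCRIB (chromosome 8 from 143790920 to 143815379), the leucine-rich repeat and PDZ scaffold that gives the group its name, stood at 71.9, 80.5 and 91.4 CPM in siNC and 89.2, 91.9 and 78.5 CPM in siZEB1. It was not called (0.091, 95% interval -0.089 to 0.27, adjusted p = 0.424), and the ranges of the groups largely overlapped.

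Cultures of a group differed along the GC content and the length of the genes, and the members range in transcript GC content from 38.7% to 66.5%. Across the 10231 genes above 5 CPM, Spearman's rank correlation between transcript GC content and the deviation of a culture from its group's mean was -0.655, -0.0563 and 0.579 for siNC replicates 1, 2 and 3 and 0.385, 0.296 and -0.492 for siZEB1 replicates 1, 2 and 3. With transcript length in place of GC content it was 0.30, 0.314 and -0.456 and then -0.187, -0.472 and 0.50, and the part of length in the results was not tested. For the log2 fold change of siZEB1 over siNC across the same genes, the rank correlation was -0.163 with GC content and -0.0463 with length. These are descriptions across genes, which are not independent. Transcript GC content was 66.5% for SCRIB, 63.2% for LLGL2 and 60.6% for LLGL1, and 38.7% for DLG1 and 39.1% for PRKCI. Within siNC, replicate 3 had the highest level of SCRIB, LLGL1 and LLGL2 and the lowest of DLG1 and PRKCI. Members of similar GC content did not all follow: PRKCZ (59.6%) was highest and PARD6B (40.0%) lowest in siNC replicate 2. With offsets adjusted for GC content, added after the data were seen, log2 fold changes were 1.18 for LLGL2, -0.38 for LLGL1, -0.35 for DLG1 and 1.05 for PATJ, all still called, and SCRIB was called higher at 0.25 (adjusted p = 0.000966 by edgeR).

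Of the 11 tested partners and paralogs of the Scribble group, 5 were called higher, 2 lower and 4 neither, with a median log2 fold change of 0.043. That is 63.6% called, beside 40.2% of all genes tested (19% higher and 21.2% lower). DLG3, a paralog of DLG1, rose from 41.2, 39.4 and 41.0 CPM in siNC to 62.4, 65.0 and 58.1 CPM in siZEB1 (log2 fold change 0.61, adjusted p = 3.12e-06 by edgeR). LRRC1 (LANO), a leucine-rich repeat protein related to SCRIB, rose from 19.9 to 29.6 CPM (0.57, adjusted p = 0.000143). ARHGEF7 (β-PIX), a Rac and CDC42 exchange factor that SCRIB binds, rose from 72.6 to 92.0 CPM (0.34, adjusted p = 0.0003). Its partner GIT1, an adaptor that forms a complex with it, fell, with 78.6 CPM in siNC and 59.8 CPM in siZEB1 (-0.40, adjusted p = 0.000106). CASK, a MAGUK scaffold of the basolateral side, also fell, from 30.2 to 21.7 CPM (-0.48, adjusted p = 0.00117). DLG5, a further DLG paralog, stood at 67.2 and 69.3 CPM and was not called (0.043, adjusted p = 0.715).

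To compare genes with one another, levels were divided by the length of all annotated exons of a gene, which gives CPM per kb. In siNC the order was DLG1 (22.7), PRKCI (18.5), SCRIB (13.1), PARD6B (10.2), PARD3 (9.99), LLGL1 (9.83), LLGL2 (3.09), PATJ (1.91), PRKCZ (1.10) and CRB3 (0.0586). PARD6B, PARD3 and LLGL1 did not differ beyond their spread of 1.43, 0.424 and 0.552 CPM per kb (SD), and the cultures of DLG1 and PRKCI overlapped. In siZEB1, PRKCI (19.3) and DLG1 (18.5) again overlapped at the top, followed by SCRIB (14.0) and PARD6B (12.5), which also overlapped, and by PARD3 (8.72), LLGL1 (7.05), LLGL2 (6.39), PATJ (3.998), PRKCZ (1.11) and CRB3 (0.0877). The order of the lower part was the same in both groups, but the distance between LLGL1 and LLGL2 had shrunk.

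**Figure D3:**
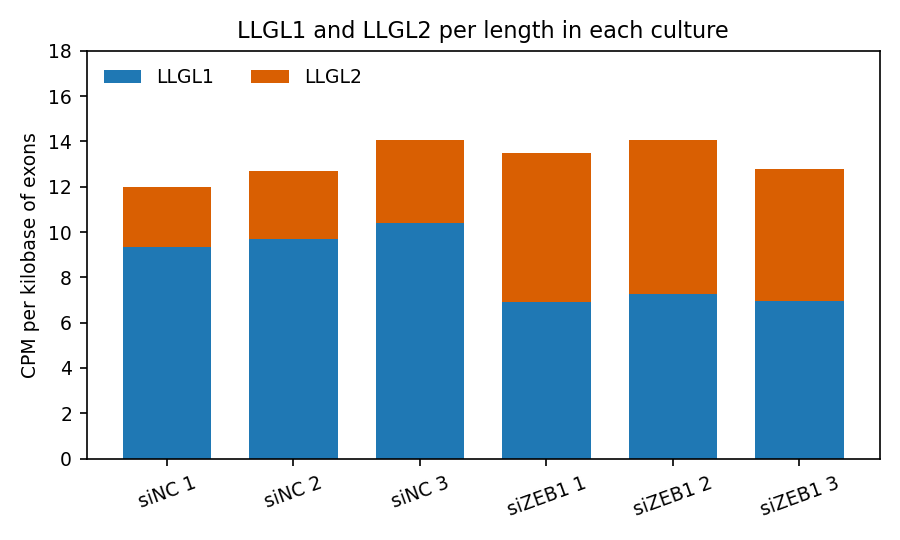
Levels of LLGL1 (blue) and LLGL2 (orange) per exon length, in CPM per kb, stacked in 1 bar for each siNC and siZEB1 culture, so that the bar's height is their sum. LLGL2 lies at 2.65 to 3.62 in siNC and 5.82 to 6.77 in siZEB1, LLGL1 at 9.34 to 10.4 and 6.90 to 7.29, so LLGL2 takes a larger part of the siZEB1 bars, while the sums average 12.9 and 13.4.

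The composition of the LGL family was therefore examined within each culture, which removes library size from the comparison. It does not remove the differences between cultures along GC content given above, and no paralog ratio or share was adjusted for GC content. Per exon length, LLGL2 made up 22.1%, 23.5% and 25.8% of LGL transcripts in the siNC cultures and 48.8%, 48.2% and 45.5% in the siZEB1 cultures. The sum of both genes was 12.9 ± 1.04 CPM per kb in siNC and 13.4 ± 0.634 in siZEB1 (SD, n = 3 each), and these sums overlapped. The log2 ratio of LLGL2 to LLGL1 reads was -1.56, -1.45 and -1.27 in siNC and 0.18, 0.15 and -0.0065 in siZEB1. The difference of the means was 1.53, with no overlap, and the two-sided exact permutation test gave p = 0.1, the smallest that 3 against 3 cultures allow (0.14 after adjustment over the 7 paralog pairs compared).

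In the DLG family, DLG1 supplied 62.5% ± 1.81 of the DLG transcripts per length in siNC and 53.2% ± 2.11 in siZEB1, while the share of DLG3 went from 14.3% ± 1.51 to 22.7% ± 2.14 (SD, n = 3 each). The log2 ratio of DLG1 to DLG3 fell from 2.62 to 1.72 and that of DLG1 to DLG5 from 1.89 to 1.56 as means over cultures, each without overlap. Both were at the smallest exact permutation p of 0.1 (n = 3 each, 0.14 after adjustment), so this design could not call a difference in composition. Part of the DLG5 exons is also covered by genes on the opposite strand, so its count is uncertain if strand was not used. These paralogs differ in transcript GC content (38.7% for DLG1, 52.3% for DLG3 and 56.5% for DLG5), and its part in the ratios was not tested.

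In the Par complex, PRKCI remained the main atypical kinase transcript, at 94.3% ± 0.842 of the pair per length in siNC and 94.5% ± 0.612 in siZEB1 (SD, n = 3 each). The log2 ratio of PRKCI to PRKCZ differed by 0.051, with overlapping groups (exact permutation p = 0.8, n = 3 each). PARD6B supplied 84.8% ± 3.49 of PAR6 transcripts in siNC and 88.7% ± 0.911 in siZEB1. Its log2 ratio to PARD6G was higher by 0.55 without overlap (exact permutation p = 0.1), whereas that to PARD6A, at a difference of 0.42, overlapped (exact permutation p = 0.3). PARD6A (1.43 and 1.31 CPM) and PARD6G (3.65 and 3.02 CPM) were not called. The PAR6 genes differ in transcript GC content (40.0% for PARD6B, 51.45% for PARD6G and 62.7% for PARD6A), and its part in these ratios was not tested. PARD3 supplied 99.0% and 98.2% of PAR3 transcripts, and its log2 ratio to PARD3B was lower by 0.88 in siZEB1 without overlap, on few PARD3B reads.

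**Figure D4:**
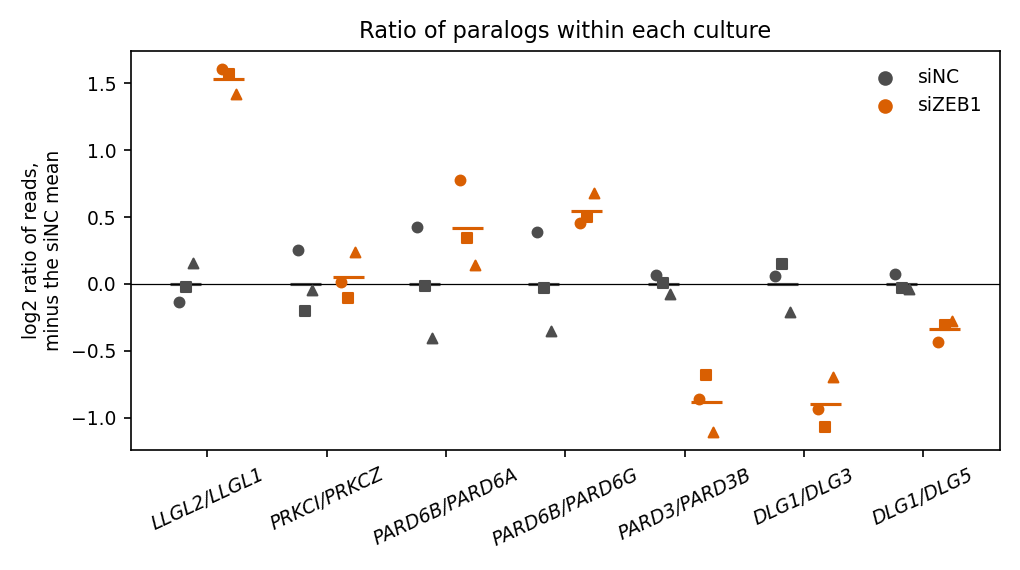
Log2 ratio of reads for 7 pairs of paralogs in each culture, drawn as the distance from the siNC mean of the pair, with lines at the group means. LLGL2/LLGL1 is 1.53 higher in siZEB1 and DLG1/DLG3 is 0.90 lower, both without overlap, while PRKCI/PRKCZ (0.051) and PARD6B/PARD6A (0.42) overlap.

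Apical membrane and trafficking genes, on which the apical surface depends, were read from a list of 12 genes, of which 11 were tested. Of these, 6 were called higher, 1 lower and 4 neither, with a median log2 fold change of 0.24, MAL2 included. That is 63.6% called, beside 40.2% of all genes tested (19% higher and 21.2% lower). Among the higher genes, RAB11A (0.22, adjusted p = 0.0082 by edgeR) and RAB11FIP1 (0.24, 0.0443) lost their calls in 3 and 5 of the 13 alternatives to the fit described below. A gene on the opposite strand shares 24.8% of the exonic bases of RAB11FIP1. MAL2, a membrane protein of apical transcytosis, had 2, 4 and 6 reads under siNC and 32, 21 and 26 under siZEB1. Its log2 fold change was 2.81 (adjusted p = 5.66e-05 by edgeR) at low mean levels of 0.195 and 1.38 CPM. With so few siNC reads MAL2 passed the filter only through the siZEB1 cultures, so its call and the size of its fold change are uncertain, and without it 5 genes of this list were called higher. MYO5B, the motor of apical recycling endosomes, rose from 6.87, 6.16 and 7.52 CPM to 12.4, 9.78 and 12.02 CPM (0.74, adjusted p = 0.000162). STX3, the apical SNARE, rose from 268 to 366 CPM (0.45, adjusted p = 4.42e-06), and EZR, which links apical membrane to actin, from 680 to 884 CPM (0.38, adjusted p = 1.15e-05). PODXL, the apical sialomucin podocalyxin, went the other way, from 63.8, 73.1 and 56.9 CPM to 29.9, 27.9 and 34.4 CPM (-1.07, adjusted p = 1.63e-07). MYO5B, STX3, EZR and PODXL did not overlap between the groups, where 49.5% of all genes tested did not overlap. The separation of MAL2 is not counted here, because of its filter.

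Planar cell polarity, which orients cells within the plane of the sheet, was taken as a neighbouring system for contrast. Of 13 listed genes 10 were tested, and 1 was called higher, 5 lower and 4 neither, with a median log2 fold change of -0.12. That is 60.0% called, beside 40.2% of all genes tested (19% higher and 21.2% lower). Among the lower genes, DVL2 (-0.21, adjusted p = 0.0497 by edgeR) lost its call in 10 of the 13 alternatives to the fit described below. DESeq2 (0.0750) and edgeR with GC-adjusted offsets (0.140) were among these. CELSR2, an atypical cadherin, fell from 46.7, 51.1 and 48.5 CPM to 26.6, 24.8 and 31.5 CPM (-0.82, adjusted p = 1.22e-06 by edgeR), and the cytoplasmic transducer DVL1 from 94.2, 100.4 and 113 CPM to 81.2, 75.9 and 72.8 CPM (-0.42, adjusted p = 0.000269, and -0.26 with GC-adjusted offsets). The changes of CELSR1 (-0.29, adjusted p = 0.0137), VANGL1 (-0.21, 0.0208) and the receptor FZD6 (0.26, 0.0231), all from edgeR, did not hold with every culture left out. The adjusted p for CELSR1 was 0.113 without siNC replicate 2 and 0.0642 without siZEB1 replicate 2 (0.0764 with GC-adjusted offsets), that for VANGL1 was 0.0599, 0.0714 and 0.106 without siNC replicate 1, siNC replicate 2 and siZEB1 replicate 1, and that for FZD6 was 0.145 without siZEB1 replicate 3.

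Over the 5 lists together, 55 of 63 genes were tested, 20 were called higher and 11 lower. That is 56.4% called beside the 40.2% of all genes tested, and the groups did not overlap for 39 of the 55, where 49.5% of all genes did not, with a median log2 fold change of 0.0066. MAL2, which passed the filter only through the siZEB1 cultures, is among the 20 and among the 39. The lists were chosen with earlier results of these data known and carry no test of their own.

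**Figure D5:**
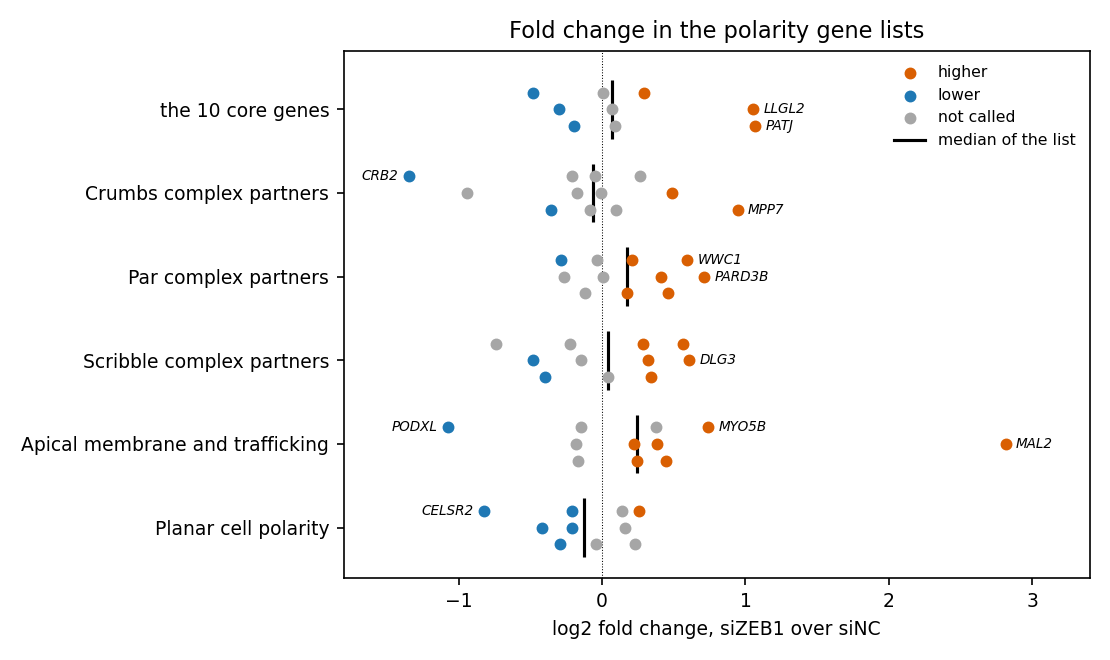
Log2 fold change of siZEB1 over siNC for each tested gene, 9 of the 10 members in the top row and the 5 lists below, coloured by call at an adjusted p under 0.05, with a black line at the median of each list. Medians lie between -0.12 (planar cell polarity) and 0.24 (apical membrane and trafficking), and MAL2 at 2.81 and CRB2 at -1.35 are the outermost genes. MAL2 rests on at most 6 reads in any siNC culture, so its position is uncertain.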

How the data were processed

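RNA from 3 siNC and 3 siZEB1 cultures of SW480 was sequenced, and the authors deposited raw read counts per gene for each culture. The submitters' processing notes name Trimmomatic, HISAT2, SAMtools, featureCounts and the build hg38, while versions, annotation and the use of strand are not given in the sources used here. Genes were kept by edgeR's filterByExpr (14996 of 32029), scaled by TMM and tested with edgeR 4.0.16 (R 4.3.3) by the quasi-likelihood test on group alone, with Benjamini-Hochberg adjustment. The biological coefficient of variation was 6.58%. Coordinates, exon lengths and overlaps came from GENCODE 29 (GRCh38) and promoters from RefSeq (GRCh38.p14). Paralog ratios (log2 of counts plus 0.5) were compared by exact permutation with scipy 1.17.1. MPDZ, a paralog of PATJ, was not found among the genes of the deposited counts, so the planned ratio of PATJ to MPDZ was not compared. The fits were tested on simulated data. The text names all members, ZEB1, the paralogs paired with members, and up to 5 called genes per list with the largest change. CDC42, MARK3, ERBIN, STXBP5, RAB11A, RAB11FIP1 and DVL2 are named as well, because their calls depended on the processing or on a single culture. The members and lists were chosen with earlier results of these data known. Alternatives were DESeq2 1.42.0, other size factors, other filters, other thresholds, a replicate block, omission of each culture in turn, a pseudocount of 5 and offsets adjusted for GC content.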

Additional observations from a re-analysis of the deposited data

How the results depend on the processing

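The calls of PATJ, LLGL2, LLGL1 and DLG1 held in all 13 alternatives to the fit, with log2 fold changes of 1.01 to 1.11, 0.95 to 1.18, -0.51 to -0.38 and -0.39 to -0.24 and adjusted p-values of at most 5.85e-07, 7.77e-06, 0.000773 and 0.0415. PARD3 lost its call in 5 of them and PARD6B in 2. Of 31 called genes in the 5 lists, 19 held in all 13 alternatives, and 0 calls reversed; MAL2 held in the 12 that kept it and dropped out under the filter of 10 counts in every culture. When single cultures were left out, 2 to 3 members were called higher and 2 to 3 lower, and 16 to 20 and 8 to 11 genes of the lists. In edgeR, a fold change above 1.5 left 0 members lower at an unadjusted p under 0.05 and 0 at an unadjusted p under 0.001, since the 3 lower members changed by less than that. Among the 55 tested genes of the lists it left 6 higher and 5 lower at the first limit, beside 7.21% and 9.35% of all genes tested. At the second limit it left 5 higher and 3 lower, beside 4.52% and 6.7% of all genes tested. The replicate block called 3 members higher and 2 lower and 14 and 9 genes of the lists, and PARD3 was at an adjusted p of 0.116. Shares of all genes called under the block and with single cultures left out are not given here. These counts therefore describe only how far the calls depended on the fit. Cultures that share a number did not deviate together (correlations of -0.563 to -0.234), so the block is not taken as a pairing. Between cultures of different number the correlations ran from -0.354 (siNC replicate 1 with siZEB1 replicate 2) to 0.491 (siNC replicate 3 with siZEB1 replicate 2). The main fit takes no account of such shared deviations, and their source was not tested. Depth leaves CRB3 untested and limits PARD3B, CRB2 and MAL2, which rest on at most 42 reads per culture.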

Other observations

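Among polarity genes below the filter, RAB25, a small GTPase of apical recycling, had 1, 0 and 3 reads in the siNC cultures and 4, 1 and 7 in the siZEB1 cultures. The kinase gene MARK1 had 2, 3 and 4 reads in siNC and 9, 5 and 4 in siZEB1. CRB1 had 1 read in a single siNC culture and none elsewhere, so that Crumbs transcripts of any kind were few in both groups. The planar polarity gene PRICKLE1, 23.6% of whose exonic bases lie opposite exons of other genes, had 13 reads in siNC replicate 1 and at most 3 in each of the other cultures. None of these genes was tested.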
